A study of Homo sapiens with 4 samples.

Results

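Long intergenic noncoding RNA (lincRNA) genes were followed in H1299 cells exposed to methylparaben. H1299 is an established human non-small-cell lung carcinoma line that lacks p53, and methylparaben is a phenolic ester used as a preservative. Members were the genes that the deposited annotation types as lincRNA, with 6 ribosomal RNA copies left out. All transcripts of such a gene were summed, whatever their own type. This gave 7623 genes (13174 transcripts) of 58735 genes in all. Cells of the line received either ethanol as the control or 0.5 mM methylparaben for 48 h. Each group had 2 libraries, and all 4 were made from RNA pulled down with poly(A) beads. Nothing in the labels says that the libraries within a group are separate cultures. The p-values therefore measure only the spread between libraries, which may be technical.

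LincRNAs are RNA polymerase II transcripts, usually capped, spliced and polyadenylated, that lie between coding genes and hold no long reading frame. Some build nuclear bodies: MALAT1 lies in nuclear speckles, and the long form of NEAT1 is the scaffold of paraspeckles. Others bind proteins in the cytoplasm, as NORAD binds Pumilio proteins, or serve as the precursor RNA from which microRNAs (miRNAs) or small nucleolar RNAs (snoRNAs) are cut.

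Library totals ran from 2068486 to 3760982 counts, at which 3 counts stand for 0.798 to 1.45 CPM, that is, counts scaled to a common library total. Only bases found in no more than 1 annotated transcript had been counted, whatever the strand, so a gene's count can come from part of its RNA. Of the members, 5648 had no read in any library, 1663 had reads but too few to be tested, and 312 were tested (4.09%). The tested members had a median of 8.89 CPM over the 4 libraries, against 25.7 CPM for tested coding genes. Another consequence of the counting is that 81 members have no base at which a read could have been counted. Cell type markers were those of a line with mesenchymal features. KRT8 and KRT18 had reads, CDH1 and EPCAM were at 0, and all 5 lung and all 5 blood and immune markers were at 0. The 4 mesenchymal markers, VIM, FN1, CDH2 and AXL, summed to 1330 and 1950 CPM in ethanol and to 623 and 526 CPM in methylparaben, and the part of this shift in the lincRNA results was not tested.

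Several members carry miRNAs, and sequences from hosts that were called lower with methylparaben are shown. The mature forms (RefSeq, GRCh38.p14) are written 5′ to 3′ with the seed, bases 2 to 8, in capitals:
miR-221-3p: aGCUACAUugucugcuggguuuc
miR-222-3p: aGCUACAUcuggcuacugggu
miR-155-5p: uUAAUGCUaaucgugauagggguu
miR-137-3p: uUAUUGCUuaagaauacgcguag
miR-421: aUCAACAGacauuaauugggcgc
miR-30a-5p: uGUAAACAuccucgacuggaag
miR-30c-5p: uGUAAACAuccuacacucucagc
let-7i-5p: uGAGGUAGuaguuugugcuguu
The forms miR-221-3p and miR-222-3p share the seed GCUACAU and lie in an intron of MIR222HG. Likewise, miR-30a-5p and miR-30c-5p share the seed GUAAACA and lie in an intron of LINC00472. An exon of MIR155HG holds miR-155-5p, and an exon of MIR137HG holds miR-137-3p. Introns of FTX and of AC048341.1 hold miR-421 and let-7i-5p. The miRNAs themselves were not measured in these libraries.

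NORAD holds 15 copies of the Pumilio recognition sequence TGTANATA in its 5339 bases, or 2.81 per kb. Of 645 lincRNA transcripts of at least 3000 bases, 32.1% held a copy, and 1 other held more per kb than NORAD. Bases 1099 to 1248 of the RNA are shown with 2 of these copies in capitals:
NORAD: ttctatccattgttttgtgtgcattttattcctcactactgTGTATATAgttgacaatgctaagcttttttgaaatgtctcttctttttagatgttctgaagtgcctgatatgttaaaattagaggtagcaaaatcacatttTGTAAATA
MALAT1 and the long form of NEAT1 are known to end in a triple helix built from U-rich stretches and a genome-encoded A-rich tract. The 120 bases that lead up to that tract are shown with its last bases in capitals, from base 8236 of MALAT1-202 and from base 22624 of NEAT1-202:
MALAT1: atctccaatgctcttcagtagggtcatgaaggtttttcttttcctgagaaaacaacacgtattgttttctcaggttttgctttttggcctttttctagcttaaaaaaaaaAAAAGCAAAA
NEAT1: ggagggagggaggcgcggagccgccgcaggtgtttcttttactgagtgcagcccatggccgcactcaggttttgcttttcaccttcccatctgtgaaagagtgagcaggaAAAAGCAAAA
Both stretches were cut at the last copy of the letters in capitals, so their shared ending follows from the cut. In MALAT1-202, 353 bases follow it, and in NEAT1-202 none.

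Promoters (RefSeq, GRCh38.p14, 250 bases before to 50 bases after the start) are shown for LINC00973 and MIR155HG, a pair of strongly lower genes whose windows hold the AP-1 sequence. The sequence TGANTCA is in capitals, starting 49 and 60 bases before the RefSeq start. For MIR155HG that start lies 236 bases downstream of the start in the deposited annotation, so its match falls inside the annotated gene. The first is on the plus strand at chr3:98980805-98981104 and the second on the plus strand at chr21:25561895-25562194:
LINC00973: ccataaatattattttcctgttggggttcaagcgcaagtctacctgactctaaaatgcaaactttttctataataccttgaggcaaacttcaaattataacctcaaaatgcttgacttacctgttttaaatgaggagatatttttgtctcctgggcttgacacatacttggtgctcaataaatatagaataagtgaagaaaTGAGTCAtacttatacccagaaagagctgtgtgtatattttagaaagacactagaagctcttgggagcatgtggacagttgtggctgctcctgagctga
MIR155HG: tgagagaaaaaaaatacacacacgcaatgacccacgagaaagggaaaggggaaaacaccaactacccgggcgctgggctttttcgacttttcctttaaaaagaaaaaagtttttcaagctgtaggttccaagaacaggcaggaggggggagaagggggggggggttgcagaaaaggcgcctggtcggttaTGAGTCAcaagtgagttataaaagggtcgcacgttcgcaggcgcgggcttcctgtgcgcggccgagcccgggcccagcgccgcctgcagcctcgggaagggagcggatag

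With methylparaben, 38 tested lincRNA genes were higher and 90 were lower, and 184 did not pass the test. Calls are at an adjusted p under 0.05 from edgeR's quasi-likelihood test, adjusted over all 8055 genes tested. Higher calls made up 12.2% of the tested lincRNA genes against 18.5% of all tested genes, and lower calls made up 28.8% against 18.4%. In either direction the shares were 41.0% and 36.9%. Among protein-coding genes 39% were called, 19.6% higher and 19.4% lower. The median log2 fold change was -0.46 over the tested lincRNA genes, 0.03 over all tested genes and 0.03 over coding genes. The median was also -0.46 with the 2 genes that had no count in methylparaben set at their bound. It was -0.72 without methylparaben replicate 1, -0.75 without methylparaben replicate 2 and -0.88 with no filter on low counts. Without ethanol replicate 1 it was -0.44, and without ethanol replicate 2 it was -0.53. Each of these settings admits more genes. The median also differed by level. In sets of 78 tested lincRNA genes by mean CPM, it was -1.25, -0.27, -0.61 and -0.01 from the lowest set to the highest. In the lowest set 8.97% were higher and 35.9% lower, and in the highest 23.1% and 30.8%. Coding genes were not compared at matched levels. Changes were at least 2-fold in 36 of the higher and 88 of the lower genes. Without ethanol replicate 1 the counts fell to 16 higher and 41 lower, and without ethanol replicate 2 to 32 higher and 50 lower. With each library left out in turn, 16 of the higher and 32 of the lower genes were called every time.

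**Figure D1:**
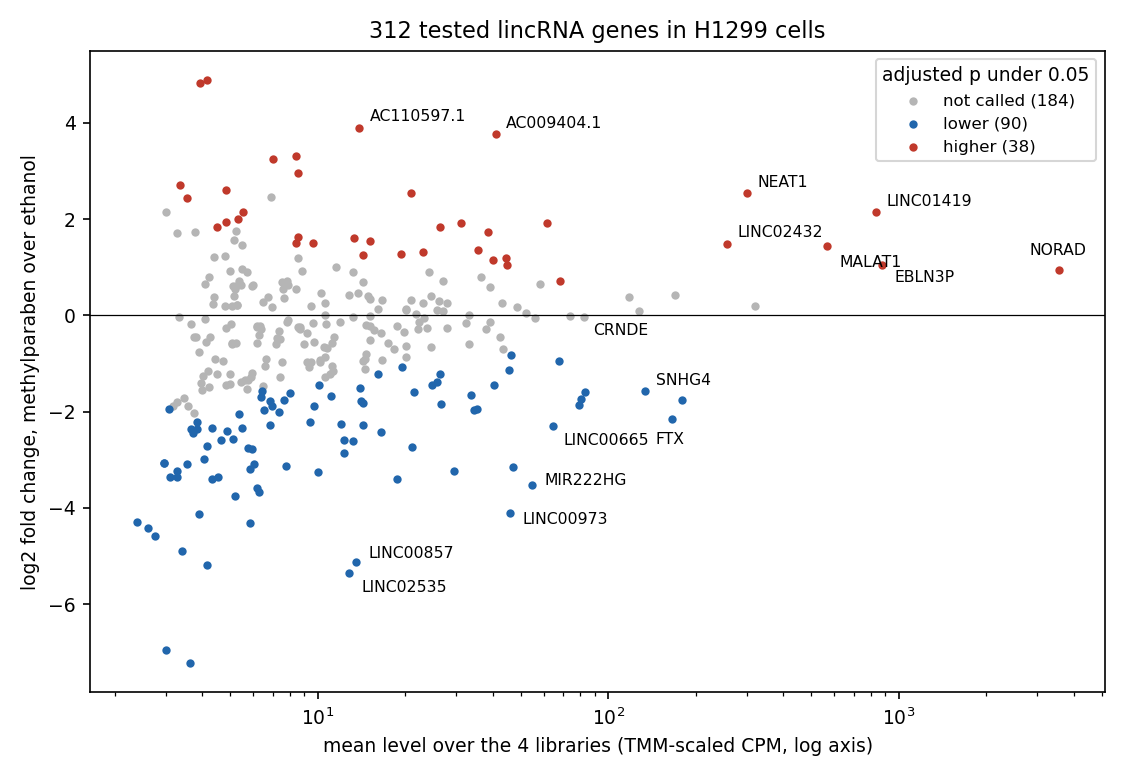
Log2 fold change of each tested lincRNA gene (vertical axis) against its mean level over the 4 libraries in TMM-scaled CPM (horizontal, log axis); each point is a gene and colour marks the call. NORAD, EBLN3P and LINC01419, the rightmost points, are all higher, and blue points outnumber red ones.

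NORAD, a cytoplasmic RNA named for its activation by DNA damage, had the highest deposited level per length averaged over the 4 libraries. On the length-scaled FPKM scale of the deposited table, summed over a gene's transcripts, its level was 449 and 453 in ethanol and 883 and 783 in methylparaben. Both methylparaben libraries stood above both ethanol libraries, with no overlap. On the count scale the log2 fold change was 0.94 ± 0.17 (SE; adjusted p = 0.00249). NORAD (chr20:36045622-36050960, 1 exon) shares 56.4% of its 31-base words with other annotated genes, among them OVCH1-AS1 with 38% and HCG11 with 12.4%, so its call is uncertain in assignment, as is its part in the share of counts given below. HCG11, which was named after its values were seen, moved the other way, with 302 and 254 CPM in ethanol and 86.3 and 75.9 CPM in methylparaben (log2 fold change -1.77 ± 0.19, adjusted p = 0.000206).

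By the same average, LINC01419 was next (chr8:83403758-83408900, 2 exons). Its nearest coding gene lies 773887 bases away. Its FPKM were 196 and 204 in ethanol and 913 and 794 in methylparaben. The groups were far apart, and in methylparaben LINC01419 reached the level of NORAD (log2 fold change 2.15 ± 0.17, adjusted p = 5.1e-05). LINC02432 had FPKM of 155 and 125 in ethanol and 315 and 330 in methylparaben. It rose by 1.49 ± 0.18 on the log2 scale (adjusted p = 0.00032). EBLN3P, a pseudogene-derived transcript of an ancient bornavirus-like insertion, had FPKM of 122 and 146 in ethanol and 311 and 246 in methylparaben. EBLN3P rose by 1.04 ± 0.18 (adjusted p = 0.00194), and 3 of its transcripts were called higher when tested singly. The fifth by that average, CRNDE, had FPKM of 174, 160, 146 and 127, and its summed count was not called. This order is that of the deposited values, which divide by full transcript lengths and not by the bases at which reads could be counted. AC008124.1, which had the fifth-largest number of counts, had 325 and 274 CPM in ethanol and 350 and 332 CPM in methylparaben. It was not called (log2 fold change 0.19 ± 0.17, adjusted p = 0.406), while its divergent neighbour ARID2 rose by 2.57 ± 0.40.

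With ethanol, lincRNAs held 1.17% and 1.24% of all counts, and with methylparaben 1.48% and 1.33%. The exact binomial 95% intervals, which cover counting error only, were 1.153% to 1.18%, 1.229% to 1.258%, 1.47% to 1.494% and 1.312% to 1.344%. The 2 methylparaben libraries were both above the ethanol libraries. Without NORAD the group means were 0.956% and 0.963%. NORAD, LINC01419, EBLN3P, MALAT1 and NEAT1, a group put together with their values known, held 31.8% and 31.2% of lincRNA counts in ethanol and 59.3% and 56.4% in methylparaben. All members outside this group together held 0.795% and 0.856% of all counts in ethanol and 0.603% and 0.579% in methylparaben. The 5 genes of the group were all called higher, so the choice favours a rise of their share and a smaller rest. Neither is a further result. The 5 lincRNA genes with most counts, picked anew in each library, held 33.8% and 33.0% of lincRNA counts in ethanol. In methylparaben they held 59.3% and 56.4%. These are shares of counts, not of molecules, since long genes give more reads.

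**Figure D2:**
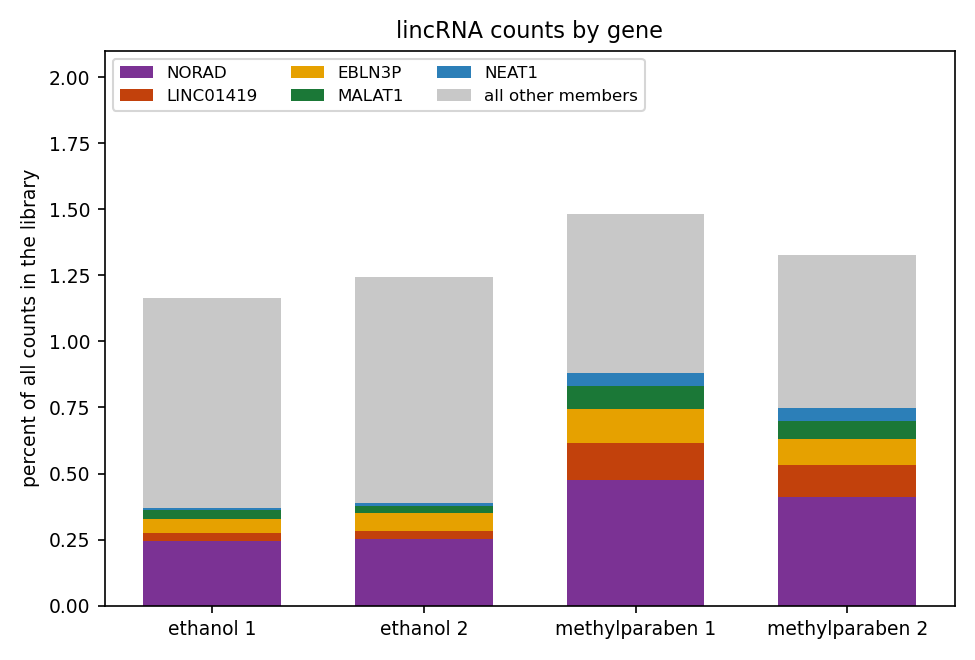
Percent of all counts in each library (vertical axis) that fell on lincRNA genes, stacked by gene, with one bar per library. The bars are taller with methylparaben, at 1.48% and 1.33% against 1.17% and 1.24%, and the grey part for all other members is smaller. The genes shown by name were all called higher, so the smaller grey part is no further result.

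Among 11 listed RNAs of nuclear bodies and chromatin, 6 are members and 4 were tested: NEAT1 and MALAT1 were higher, FTX was lower and CRNDE was not called. NEAT1 (chr11:65422774-65445540) had 94.4 and 81.4 CPM in ethanol and 490 and 533 CPM in methylparaben. The groups did not overlap, and the log2 fold change was 2.54 ± 0.18 (adjusted p = 3.3e-05), the smallest adjusted p of any gene named here. All of its counted reads fell on NEAT1-202, the long form of 22743 bases: 222 and 188 counts in ethanol and 1800 and 1018 counts in methylparaben. These reads lie at bases annotated to the long form alone, and the rise was seen there. Bases shared between annotated forms were not counted, so the counts do not show whether the other forms of NEAT1 changed. MALAT1 (chr11:65497688-65506516), a neighbour of NEAT1 on the chromosome, had 336 and 275 CPM in ethanol and 889 and 764 CPM in methylparaben. It rose by 1.44 ± 0.18 on the log2 scale (adjusted p = 0.000416). All MALAT1 reads fell on MALAT1-202, and since 17.4% of its exonic bases belong to a single transcript, its level per length is understated. How fully poly(A) beads recovered MALAT1 and the long form of NEAT1, with the A-rich ends described above, was not measured.

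FTX (chrX:73946555-74293574), a noncoding gene of the X-inactivation centre known as a positive regulator of XIST, went down. Its level was 250 and 294 CPM in ethanol and 69.1 and 52.9 CPM in methylparaben. Both methylparaben values were well below the ethanol values (log2 fold change -2.15 ± 0.21, adjusted p = 0.000129). Most of the counts came from FTX-210, with 537 and 630 counts in ethanol and 193 and 72 in methylparaben. FTX-209, a shorter form, had 29, 14, 38 and 18 counts and was not called. FTX shares 45.5% of its 31-base words with other genes.

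CRNDE, an RNA raised in many tumours and transcribed divergently from IRX5, was not called as a sum, but 4 of its transcripts were called when tested singly. Its summed level was 89.7 and 77.9 CPM in ethanol and 85.7 and 78.0 CPM in methylparaben (log2 fold change -0.03 ± 0.21, adjusted p = 0.925). Tested singly, CRNDE-205 rose from 8.02 and 9.62 to 34.0 and 34.8 CPM, here per library total without TMM scaling (log2 fold change 2.05 ± 0.34, adjusted p = 0.0016). CRNDE-210 fell from 45.6 and 36.7 to 17.3 and 12.1 (-1.39 ± 0.33, adjusted p = 0.00799). These 2 forms moved in opposite directions with no overlap between groups. CRNDE-208 was also higher (1.49 ± 0.52, adjusted p = 0.0435) and CRNDE-204 lower (-1.26 ± 0.38, adjusted p = 0.024). CRNDE was the 1 lincRNA gene with called transcripts in both directions. In the single-transcript test 51 lincRNA transcripts were higher and 99 lower of 330, against 20.3% and 19.1% of the 9167 transcripts tested. Each form is read only at its own bases, so these are counts of exon parts and not of whole molecules.

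**Figure D3:**
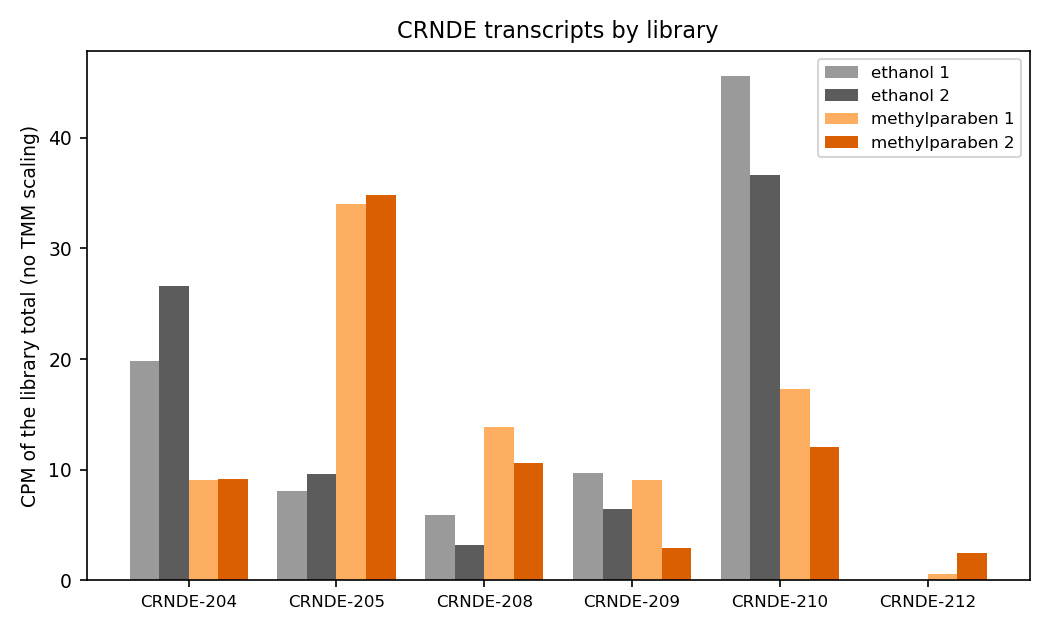
Level on the vertical axis, in CPM of the library total, for each CRNDE transcript with reads, one bar per library. CRNDE-205 is higher in both methylparaben bars, at 34.0 and 34.8, and CRNDE-210 is lower, at 17.3 and 12.1.

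Of the 12 listed RNAs of the p53 network and genome stability, 8 are members and 2 were tested. NORAD was higher and PVT1 was not called. PVT1, the host of miRNAs next to MYC, had 5.10 and 7.36 CPM in ethanol and 3.81 and 4.71 CPM in methylparaben (log2 fold change -0.57 ± 0.55, adjusted p = 0.451).

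At a mean of 5 CPM or more, AC110597.1 and AC009404.1 showed the largest increases. AC110597.1 (chr18:67481791-67484966, 1 exon) is an uncharacterised gene near DSEL, and its level was 2.98 and 0.433 CPM in ethanol and 29.7 and 22.5 CPM in methylparaben. The log2 fold change was 3.90 ± 0.60 (adjusted p = 0.00123). It ranged from 3.13 without ethanol replicate 2 to 5.75 without ethanol replicate 1, while that of AC009404.1 stayed between 3.58 and 3.97, so the order of the 2 is not settled. AC009404.1 (chr2:117833937-117841658, up to 3 exons), 1558 bases downstream of the coding gene DDX18, had 6.38 and 4.76 CPM in ethanol and 70.2 and 82.7 CPM in methylparaben. This was a 13.6-fold difference with tight replicates (log2 fold change 3.76 ± 0.32, adjusted p = 7.6e-05). AC009404.1-201 rose by 3.72 ± 0.37 and AC009404.1-202 by 3.78 ± 0.69 when tested apart. LINC01844 had 1.28 and 1.73 CPM in ethanol and 15.0 and 15.7 CPM in methylparaben (3.31 ± 0.55, adjusted p = 0.00177).

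AL589743.4 had 1.28 and 2.60 CPM in ethanol and 15.8 and 14.7 CPM in methylparaben, and rose by 2.95 ± 0.55 on the log2 scale. AL031118.1 had 6 and 0 counts in ethanol and 38 and 29 in methylparaben, with a log2 fold change of 3.24 ± 0.83. Its size rests on ethanol replicate 1, being 2.29 without ethanol replicate 2 and, against the library with no count, a fitted 8.05 that is no measure of size. AC126175.1 rose by 2.54 ± 0.56 with uneven replicates: it had 20.1 CPM in methylparaben replicate 1 and 51.8 CPM in replicate 2, against 8.51 and 3.46 CPM in ethanol. AF127577.4, in the NRIP1 locus, had 16.2 and 9.95 CPM in ethanol and 49.8 and 48.7 CPM in methylparaben. AC005261.1, in a cluster of zinc finger genes, had 17.4 and 34.2 CPM in ethanol and 99.9 and 94.7 CPM in methylparaben. Both rose by 1.91 (SE 0.33 and 0.31). AC138393.3 had 1.28 and 2.60 CPM in ethanol and 5.17 and 13.1 CPM in methylparaben (adjusted p = 0.0376), and its call was lost without ethanol replicate 1 and without methylparaben replicate 2. AC005479.2 had 1.70 and 2.60 CPM in ethanol and 11.2 and 5.76 CPM in methylparaben (adjusted p = 0.0305), and its call held only when methylparaben replicate 2 was the library left out. NEAT1 and LINC01419 completed the 12.

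The largest decreases at that level included several nearly silenced genes. LINC00857 (chr10:80207710-80219657, 2 exons), divergent from ANXA11, had 26.8 and 26.4 CPM in ethanol and 0.816 and 0.523 CPM in methylparaben, where it was read 4 times in all. The ratio of its counts, each taken per TMM-scaled library total, was 0.0270 for methylparaben over ethanol (exact binomial 95% interval 0.00723 to 0.0708). LINC02535 had 25.9 and 23.8 CPM in ethanol and 0 and 1.57 CPM in methylparaben. With 116 counts against 3, its ratio was 0.0216 (interval 0.00439 to 0.0648). LINC02535 lies 59398 bases from NT5E, which encodes the ecto-enzyme CD73. AC116345.1 and LINC00702, both under 5 CPM on average, had 34 and 28 counts in ethanol and none in methylparaben. These 2 were at least 13.6-fold and 11.2-fold lower, taking 3 counts over the group as the floor.

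LINC00973 (chr3:98981058-98983096, 2 exons) gave the smallest adjusted p of the decreases. It had 90.6 and 82.7 CPM in ethanol and 5.17 and 4.71 CPM in methylparaben. The values within each group were close and the groups 17.2-fold apart (log2 fold change -4.11 ± 0.30, adjusted p = 3.9e-05). LINC01963, beside the DNA repair gene XRCC5, had 48.5 and 57.6 CPM in ethanol and 5.17 and 6.28 CPM in methylparaben (-3.23 ± 0.34, adjusted p = 0.000185). AL161431.1 (chr13:109269634-109278512) had 34.9 and 33.8 CPM in ethanol and 3.27 and 3.14 CPM in methylparaben (-3.40 ± 0.39, adjusted p = 0.000293). AC091057.4 fell by 3.25 on the log2 scale. AC018553.1, AC044802.1, LINC02454 and AC009902.3 had 4 to 6 counts each in methylparaben. AC009902.3 had 26 and 20 counts in ethanol, and the others had uneven ethanol libraries. AC018553.1, for example, had 16.2 and 4.76 CPM in ethanol against 0.816 and 1.57 CPM in methylparaben. The calls of AC018553.1, LINC02454 and AC009902.3 were lost without ethanol replicate 1 (adjusted p = 0.345, 0.104 and 0.0817), and that of AC044802.1 without ethanol replicate 2 (adjusted p = 0.0541).

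**Figure D4:**
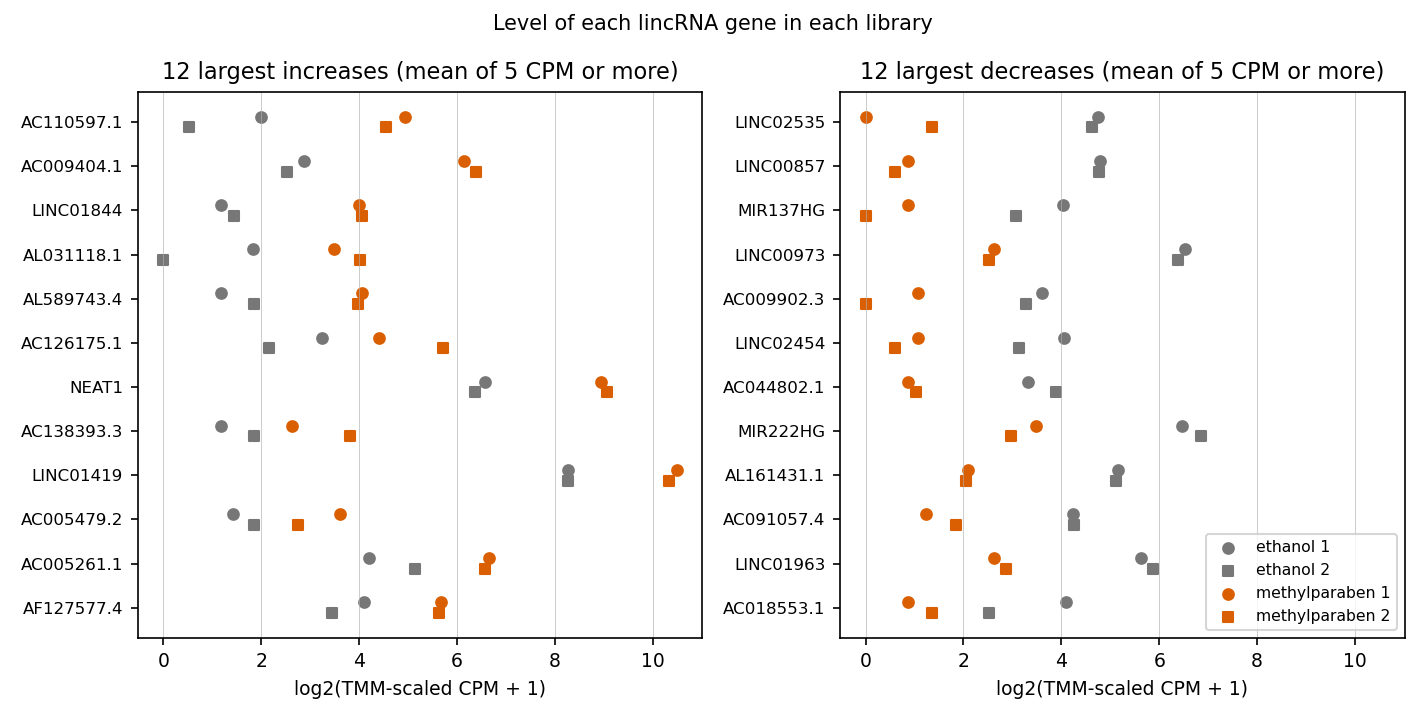
Level of each gene in each library, as log2 of TMM-scaled CPM plus 1 (horizontal axis), for the 12 largest increases and 12 largest decreases at a mean of 5 CPM or more. Grey points are ethanol and orange points methylparaben. The groups are separate in every row, most widely for LINC02535, LINC00857 and LINC00973 among the decreases. The rows were chosen as called genes with the largest changes, so their separation is no further result.

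Genes named as miRNA hosts were tested in small number. Of 47 members with a symbol of the form MIR...HG, 16 had reads and 4 were tested: 3 were lower and none was higher, with a median log2 fold change of -2.91. Of all tested lincRNA genes 28.8% were lower, and of all tested genes 18.4%. MIR222HG (chrX:45745211-45770274), whose RNA yields the miR-221 and miR-222 pair shown above, had 87.6 and 114 CPM in ethanol and 10.1 and 6.80 CPM in methylparaben. The groups were 11.5-fold apart (log2 fold change -3.53 ± 0.31, adjusted p = 8.6e-05). MIR155HG (chr21:25561909-25575168), the primary transcript of the immune-related miR-155, had 23.8 CPM in both ethanol libraries and 4.90 and 4.71 CPM in methylparaben. It fell by 2.29 on the log2 scale (SE 0.40, adjusted p = 0.00222). MIR137HG, the host of the neuronal miR-137, had 15.3 and 7.36 CPM in ethanol and 3 counts in all in methylparaben. Its ratio was 0.0473 (exact binomial 95% interval 0.00946 to 0.146), and the adjusted p, 0.00388 with all libraries, was 0.0999 without ethanol replicate 1. MIR4435-2HG had 12.8, 13.9, 14.1 and 19.9 CPM and was not called (0.33 ± 0.38, adjusted p = 0.519).

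Counting by RefSeq position rather than by name, 9 tested members held an annotated miRNA on their strand, of which 7 were lower and 1 was higher. Of all tested lincRNA genes 28.8% were lower and 12.2% higher, and of all tested genes 18.4% and 18.5%. PVT1, named above as a host of miRNAs, was tested and not called but is not among the 9. The positions used placed no miRNA in it, so the 9 may not be every tested host. Besides MIR222HG, MIR155HG, MIR137HG and FTX, the lower genes were CYTOR, LINC00472 and AC048341.1. LINC00472, around miR-30a and miR-30c-2, had 37.8 and 35.9 CPM in ethanol and 20.1 and 5.23 CPM in methylparaben. The methylparaben libraries differed from each other here (-1.45 ± 0.48, adjusted p = 0.0374). AC048341.1, around let-7i, had 15.3 and 14.3 CPM in ethanol and 5.99 and 4.71 CPM in methylparaben (-1.44 ± 0.44, adjusted p = 0.0295). MUC20-OT1, around miR-570, was the gene that was higher, with 18.3 and 32.0 CPM in ethanol and 60.1 and 50.2 CPM in methylparaben. Its log2 fold change was 1.14 ± 0.32 (adjusted p = 0.0194). Without ethanol replicate 1 the calls of LINC00472, AC048341.1 and MUC20-OT1 were lost (adjusted p = 0.104, 0.121 and 0.152). Without methylparaben replicate 2 those of LINC00472 and AC048341.1 were lost too, and that of AC048341.1 also without ethanol replicate 2.

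Host genes of snoRNAs, the guides of ribosomal RNA modification, had calls in both directions. Of 14 listed, 11 are members and 5 were tested, with 2 higher, 2 lower and a median log2 fold change of -0.59, beside 18.5% higher and 18.4% lower of all tested genes. SNHG15 had 12.8 and 10.4 CPM in ethanol and 47.9 and 34.0 CPM in methylparaben (1.83 ± 0.34, adjusted p = 0.00289). SNHG8 was higher at low counts, with 2.13 and 1.73 CPM in ethanol and 6.26 and 7.85 CPM in methylparaben (1.83 ± 0.61, adjusted p = 0.0391). This call was lost when any 1 of the 4 libraries was left out. SNHG4, which overlaps MATR3, had 192 and 209 CPM in ethanol and 66.7 and 67.5 CPM in methylparaben. The replicates nearly coincided and the groups did not overlap (-1.58 ± 0.19, adjusted p = 0.00032). CYTOR, a cytoskeleton-associated RNA raised in several cancers, had 20.8 and 21.2 CPM in ethanol and 9.25 and 4.71 CPM in methylparaben (-1.52 ± 0.43, adjusted p = 0.0198), a call lost without ethanol replicate 1. EPB41L4A-AS1 had 14.5 and 3.03 CPM in ethanol and 7.07 and 4.19 CPM in methylparaben and was not called (-0.59 ± 0.69, adjusted p = 0.534).

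From a list of 38 cancer-associated RNAs, 23 are members and 10 were tested, with 3 higher, 3 lower and a median log2 fold change of -0.30, beside the same shares of all tested genes. The higher genes were NEAT1, MALAT1 and PRNCR1. PRNCR1, an RNA of the prostate cancer region on chromosome 8, had 23.0 and 31.6 CPM in ethanol and 78.4 and 45.5 CPM in methylparaben (1.20 ± 0.32, adjusted p = 0.0172). Its call was lost without ethanol replicate 1 and without methylparaben replicate 1, where the log2 fold change was 0.73. The lower genes were LINC00665, LINC01116 and CYTOR. LINC00665 had 108 and 107 CPM in ethanol and 17.1 and 27.2 CPM in methylparaben (-2.31 ± 0.28, adjusted p = 0.000347). LINC01116, near the HOXD cluster, had 22.1 and 21.6 CPM in ethanol and 3.54 and 2.09 CPM in methylparaben (-2.87 ± 0.46, adjusted p = 0.00149). The remaining 4 were CRNDE, PVT1, LINC00662 and CASC9, which were not called.

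Called genes were found in every structural class. Of 119 genes with a single annotated exon, 16 were higher and 30 lower, and of 193 with more exons, 22 were higher and 60 lower. Genes with a LINC number had 5 higher and 25 lower of 65. Genes known by a clone name had 22 and 51 of 195, and genes with a descriptive symbol 11 and 14 of 52. By position, genes pointing tail to tail with the nearest coding gene had 7 higher and 11 lower of 27, and divergent genes had 8 and 22 of 97. Lower calls exceeded higher calls in each of these classes, as they did over all tested lincRNA genes (28.8% lower and 12.2% higher). Among all tested genes the shares were 18.4% and 18.5%. Differences between the classes were not tested. A total of 56 tested members overlap a coding gene, and without strand the reads of such a pair cannot be told apart where introns are read. Without the members within 5 kb of a coding gene, 22 were higher and 46 lower of 162.

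The nearest coding gene lay a median of 5607 bases from a tested lincRNA gene and was itself tested for 161 of them. Over these pairs the 2 log2 fold changes had a Pearson r of 0.12, given as a description because both come from the same libraries. Of the 38 higher lincRNA genes, 19 had a tested neighbour, of which 6 were higher (31.6%) and 4 lower (21.1%). Of the 90 lower genes, 47 had a tested neighbour, of which 7 were higher (14.9%) and 9 lower (19.1%). Neighbours of lincRNA genes that were not called were higher in 24.2% and lower in 17.9%. In 26 pairs both genes were called, 15 in the same and 11 in opposite directions. Without ethanol replicate 1 these counts were 2 and 1, without ethanol replicate 2 they were 7 and 3, and without methylparaben replicate 1 they were 7 and 9.

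LINC00973 and DCBLD2 were the pair with the smallest errors among those that fell together. DCBLD2, which encodes a membrane protein of the neuropilin type, lies 79369 bases away in divergent orientation. It had 635 and 749 CPM in ethanol and 165 and 138 CPM in methylparaben (-2.19 ± 0.18, adjusted p = 7.54e-05). Among HOX genes, AC012531.1 overlaps HOXC4, and the 2 fell by 2.61 and 1.86 on the log2 scale. AC103702.2 lies 2351 bases from HOXB7, with changes of -2.36 and -0.99. LINC00702 and its distant neighbour KLF6, a zinc finger transcription factor gene, were both lower, KLF6 by 1.93 ± 0.46. AC019131.2 and ADH5, the gene of the formaldehyde-detoxifying alcohol dehydrogenase, were also both lower. ADH5 had 369 and 387 CPM in ethanol and 132 and 124 CPM in methylparaben. Pairs that rose together included AC009404.1 with DDX18, an RNA helicase gene (22.5 and 19.5 CPM in ethanol, 49.2 CPM in both methylparaben libraries). EBLN3P rose with ZCCHC7 (1.58 ± 0.49), AC005261.1 with ZNF460 (1.89 ± 0.63) and LINC02432 with ZNF330 (0.82 ± 0.25). The calls of AC103702.2, AC012531.1 and AC019131.2 were each lost without ethanol replicate 1 (adjusted p = 0.294, 0.223 and 0.0587). Those of AC103702.2 and AC019131.2 were also lost without ethanol replicate 2 and without methylparaben replicate 1, and that of AC103702.2 without methylparaben replicate 2. LINC00702 could not be tested without ethanol replicate 1.

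Other pairs moved in opposite directions. AL021068.1 starts 73 bases from SLC19A2, the gene of a thiamine transporter, in divergent orientation. It had 4.68 and 4.33 CPM in ethanol and 0 and 0.523 CPM in methylparaben, while SLC19A2 had 0 and 0.866 CPM in ethanol and 5.99 and 7.85 CPM in methylparaben. Both genes were near the lowest level that could be tested, and AL021068.1 could not be tested once either ethanol library was left out and was not called without methylparaben replicate 1 (adjusted p = 0.17). NUP50-DT lies 60 bases from NUP50, a nuclear pore gene, and had 7.65 and 7.79 CPM in ethanol and 23.7 and 21.5 CPM in methylparaben. NUP50 went from 196 and 226 CPM to 113 and 104 CPM (-0.96 ± 0.18, adjusted p = 0.00342). The call of NUP50-DT was lost without ethanol replicate 1 (adjusted p = 0.057). The divergent pair USP46-AS1 and USP46, 71 bases apart, did not part in this way: both fell, by 2.77 and 1.40 on the log2 scale, the former not called without ethanol replicate 2. SNHG8 and PRSS12, 215 bases apart, were higher and lower (PRSS12 -1.70 ± 0.25). AC009902.3 was lower and, 2793 bases away, FABP5, a fatty acid binding protein gene, higher by 2.36 ± 0.72. LINC01270 was lower and, 100031 bases away, CEBPB, the gene of a stress-responsive transcription factor, higher by 1.12 ± 0.28. The call of LINC01270 held only when methylparaben replicate 2 was left out. AC010198.2, a gene that GENCODE 29 names LINC00941, was lower (-1.87 ± 0.24), and CAPRIN2, 40507 bases away, was higher (1.06 ± 0.19). The coding genes nearest to NORAD, LINC01419, MALAT1, NEAT1, FTX and MIR222HG were too little read to be tested.

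**Figure D5:**
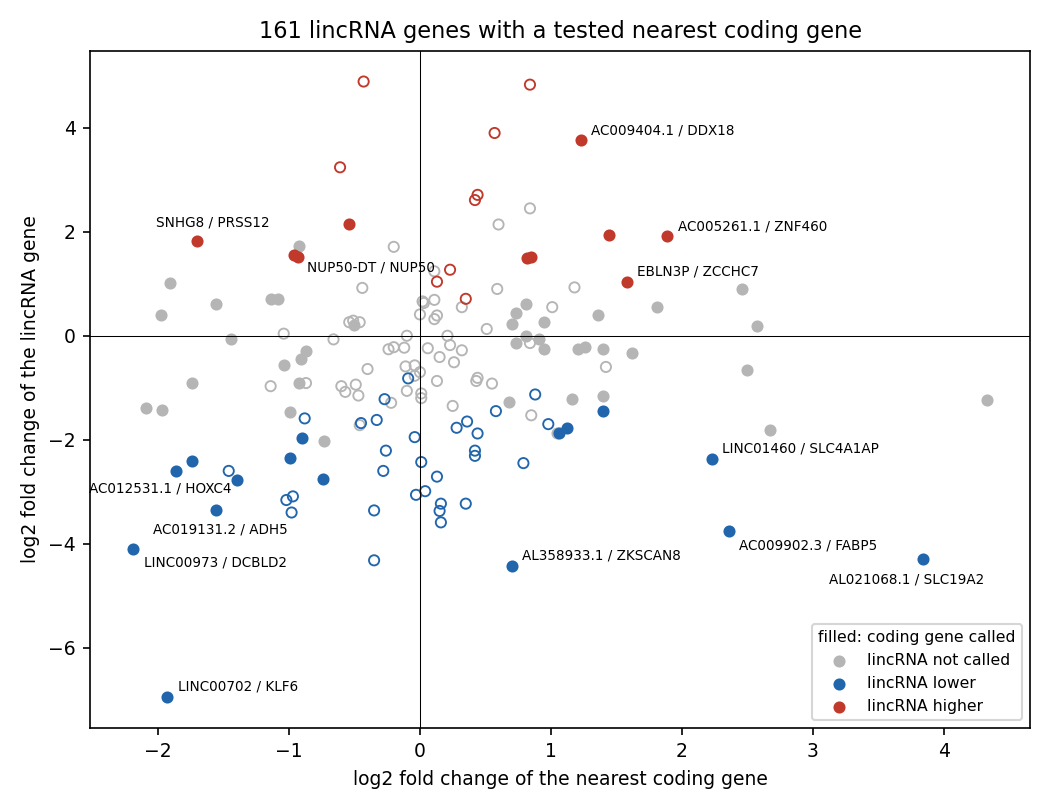
Log2 fold change of each lincRNA gene (vertical axis) against that of its nearest coding gene (horizontal axis) for the 161 pairs in which both were tested; colour marks the call of the lincRNA gene and filled points a called coding gene. Filled coloured points lie in all 4 quadrants, 15 of them where the 2 genes have the same direction and 11 where they do not.

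RefSeq promoters were matched for 67 tested members, 29 of them called. The AP-1 sequence TGANTCA, which reads the same on both strands, was in 5 of 23 promoters of lower genes (CYTOR, EIF3J-DT, LINC00702, LINC00973 and MIR155HG). It was in none of 6 promoters of higher genes, in 2 of 38 of genes not called and in 7.71% of all 35116 promoters. The TEAD sequence GGAATG, read on both strands, was in 3 of the 23, 1 of the 6 and 3 of the 38, against 14% of all promoters. The ATF4 composite element TGATGNAA and the endoplasmic reticulum stress response element were in none of the 67 windows, against 3.62% and 0.0769% of all promoters. The cyclic AMP element TGACGTCA was in none of the called genes' windows and in 2 of the 38, against 1.85%. Part of the AP-1 set was only modestly read: EIF3J-DT had 33.2 and 41.1 CPM in ethanol and 18.8 and 12.6 CPM in methylparaben (-1.22 ± 0.33, adjusted p = 0.0171), a call lost without ethanol replicate 2 (adjusted p = 0.0834).

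Sequence shared with other genes was limited for most called members, at a median of 3.62% of 31-base words. In 10 of the 128 called genes it was at least 50%, 4 of them higher and 6 lower, and these calls are uncertain in their assignment. NORAD, with 56.4%, and AC138393.3, with 71.6%, are among them. In the authors' deposited table, 114 tested lincRNA genes had a transcript at an adjusted p-value under 0.05, and 107 of these are among the 128 called here (26 higher and 81 lower).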

How the data were processed

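Members and lists were chosen with earlier results of these data known. Poly(A)-selected RNA from 2 ethanol and 2 methylparaben libraries was measured by RNA-seq. The deposited counts are raw reads for each annotated transcript. For the counting program, as for the aligner, the name is not given in the sources used. Per the submitters' processing notes, the tools were edgeR, limma and DESeq2, without stated roles, on GRCh38. The authors also deposited FPKM values, log2 values of FPKM plus 1 (per the file headers) and a p-value with its adjusted form per transcript. All 206601 transcripts were found at the same coordinates in GENCODE 29. Of these, 70749 have no base of their own, and none of those had a read.

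Counts were summed per gene, since the table holds transcripts rather than the planned gene counts. Genes passing filterByExpr (minimum count 10, minimum total 15) were scaled by TMM and tested with edgeR 4.0.16 (R 4.3.3, quasi-likelihood F-test, two-sided, Benjamini-Hochberg over 8055 genes). TMM scaling also applies to CPM. Each SE was derived from the log2 fold change and F. The fit was tested on simulated data. Named genes were the 12 largest increases and 12 largest decreases at a mean of 5 CPM or more, the 5 most abundant per length, the 5 with most counts, up to 6 members of each of 5 lists, their nearest coding genes, and genes said to be chosen after their values were seen. Pairs of called neighbours are named likewise after their values were seen. Intervals and floors (3 counts) cover counting error only. Alternatives were RLE, upper quartile and library size scaling, DESeq2 1.42.0, limma 3.58.1 (voom, or log2 of FPKM plus 1 or plus 0.1), other filters and thresholds, single transcripts, a replicate block, other neighbour rules and leaving out each library.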

Additional observations from a re-analysis of the deposited data

How the results depend on the processing

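No called lincRNA gene changed direction under the other scalings, tools and filters, with the replicate block or with a library left out. Counts of 38 higher and 90 lower moved by over 1.5 times in these cases. DESeq2 called 25 higher (64 lower). At an adjusted p under 0.01 there were 16 higher and 51 lower, 67 in all. Without members within 5 kb of a coding gene there were 22 and 46, 68 in all. Leaving out each library in turn gave 16 to 34 higher, 41 to 86 lower and 57 to 118 in all, a lone library being assumed to vary like the others, and it gave 2 to 15 neighbour pairs in the same and 1 to 10 in opposite directions. With the nearest tested coding gene as the neighbour, 24 pairs were opposite and 22 the same. Without NORAD the lincRNA share was 0.956% in ethanol and 0.963% in methylparaben. Scaling by library size alone moved the median log2 fold change of all genes from 0.03 to -0.08. The replicate numbers pair nothing in the labels, and replicate 1 of both groups deviated with r = -0.15; with the replicate block 30 were higher and 73 lower, 103 in all, and the calls of SNHG8 and AC005479.2 were lost. DESeq2 and voom lost these and AC138393.3, voom also AC018553.1, and limma on FPKM lost CYTOR and PRNCR1 and, with a pseudocount of 0.1, AC138393.3 and AL031118.1. With 2 libraries a group, 1663 members with reads were not testable, so a member without a call is not shown to be unchanged.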
